A study of Mus musculus with 4 samples.

Results

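The cytosolic ribosomal protein genes were followed across 8 cell classes of the mouse liver at D0 and D5 of DDC feeding. Their members were the rows whose gene symbol starts with Rpl or Rps followed by a digit, together with Rplp0, Rplp1, Rplp2 and Rpsa, without symbols holding -ps and without the Rps6k kinases. This rule uses names alone and gave 86 of 32285 genes. Of these, 52 carry names of the large (60S) subunit and 34 names of the small (40S) subunit. A set of 9 members are tissue-restricted copies, close paralogs or genes that only share the name, which leaves 77 core subunit genes. The 5 rows with -ps and 10 Rps6k rows were left out, and genes such as Fau and Rack1, whose products also sit on the ribosome, are missed by the rule because of their symbols. All but 1 member were seen in the nuclei, the exception being Rpl10l with 0 UMIs.

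Ribosomal protein mRNAs are made in the nucleus and exported to the cytoplasm, where they are among the most heavily translated messages. Their products return to the nucleolus, are assembled with ribosomal RNA into the subunits and leave again. In vertebrates these mRNAs start with a short run of pyrimidines, the 5′ terminal oligopyrimidine tract, through which their translation is held back or released together. In data from nuclei they are often read as a sign of cytoplasm left on the nucleus, since mature copies lie mostly outside it. Malat1, a long noncoding RNA held in the nucleus, serves as the counterpart.

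The nuclei came from livers of C57BL/6J mice of 6 to 12 weeks, fed for 0 or 5 days with chow holding 0.1% of the bile duct toxicant DDC (3,5-diethoxycarbonyl-1,4-dihydrocollidine). Cells were sorted as CD45+ CD64− CD11c+, lysed with digitonin for 210 s and profiled with 10x Multiome, which reads 3′ RNA tags and open chromatin (ATAC) from the same nucleus. Each day was 1 library, and how many mice each held is not given in the sources used here. All differences between D0 and D5 are thus differences between a pair of libraries, the diet and the library cannot be told apart, no test across samples exists, and the 95% intervals below cover counting error only.

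The RNA layer held 44496348 UMIs (unique molecular identifiers, 1 per captured mRNA) in 16260 called barcodes at D0 and 94374499 UMIs in 27873 at D5. After filters on UMIs, mitochondrial share and doublet score, 10949 nuclei at D0 and 19874 at D5 were kept, with medians of 1728 and 2559 UMIs. A total of 591 called barcodes occurred in both libraries, and 397 kept nuclei at D0 and 424 at D5 carried one of them. Leaving these out moved the member share ratios given below for all kept, cDC2-like and pDC-like nuclei by less than their counting intervals. Clusters were formed without the members and named from marker genes. Of the named classes, 8 held at least 200 nuclei on each day: cDC1-like, cDC2-like, Ccr7+ DC-like and preDC-like dendritic cells, pDC-like, NK cell-like, T cell-like and macrophage-like nuclei. The last was found although the sort selected against CD64, a macrophage surface protein. The size of this macrophage-like class depends on the clustering. It held 788 nuclei at D0 and 1538 at D5, but 613 and 528 with the members kept in the clustering. The preDC-like cluster raised 4 of 8 markers of its list, none of them among its leading genes, and the larger pDC-like cluster raised 5 of the same 8, so the name is a weak one. Of the kept nuclei, 1892 at D0 and 3128 at D5 lay in clusters without a name.

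Ribosomal protein mRNAs took a larger share of the UMIs at D5 than at D0 in each of the 8 classes, although in pDC-like nuclei this direction turned when free RNA read from Gzma was taken off. Over all kept nuclei the share was 10.1% at D0 (95% interval 10.1 to 10.1) and 17.8% at D5 (17.8 to 17.8), a 1.76-fold difference. In cDC2-like nuclei, the type 2 conventional dendritic cells, it was 12.5% at D0 (2081 nuclei) and 19.2% at D5 (5764 nuclei). In cDC1-like nuclei, the cross-presenting type, it was 11.6% (1724 nuclei) and 18.3% (3160 nuclei). These ratios lay close together, with log2 values of 0.62 for cDC2-like and 0.66 for cDC1-like nuclei.

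Before free RNA was taken off, the lymphoid and macrophage-like classes sat at the same level. NK cell-like nuclei held 11.2% at D0 and 18.1% at D5, and T cell-like nuclei 11.9% and 19.4%. Macrophage-like nuclei held 11.5% and 18.2%. The preDC-like nuclei held 11.8% in 214 nuclei at D0 and 17.7% in 1564 at D5, a log2 of 0.58.

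The low end was held by pDC-like nuclei, the interferon-producing plasmacytoid dendritic cells, with 6.12% (6.09 to 6.14) at D0 in 2045 nuclei and 10.9% (10.8 to 10.9) at D5 in 1866. The quartiles of pDC-like nuclei were 5.11% and 7.003% at D0 and 9.43% and 12.2% at D5. In cDC2-like nuclei they were 9.59% and 14.8% at D0 and 16.6% and 21.8% at D5, so these quartile ranges of the classes did not meet on either day. Next above pDC-like came Ccr7+ DC-like nuclei, mature dendritic cells on their way to lymph nodes, with 10.1% in 299 nuclei at D0 and 15.6% in 1069 at D5. The highest class stood 2.04-fold above the lowest at D0 and 1.78-fold at D5. With free RNA taken off, in the ways given further on, the pDC-like nuclei stayed lowest, and the ratio was 3.06 at D0 and 3.55 at D5 when read from T cell mRNAs and 3.23 and 9.07 when read from Gzma. Before free RNA was taken off, the 6 classes from NK cell-like to cDC2-like spanned only 11.2% to 12.5% at D0, and their quartile ranges overlapped. With it taken off, NK cell-like nuclei stood at 7.15% and T cell-like nuclei at 7.87% at D0, read from 5 pDC mRNAs. Read from T cell mRNAs, Ccr7+ DC-like nuclei stood at 6.78%, preDC-like at 9.03%, macrophage-like at 9.28%, cDC1-like at 10.1% and cDC2-like at 10.5%. The mRNAs read differ between these groups.

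**Figure D1:**
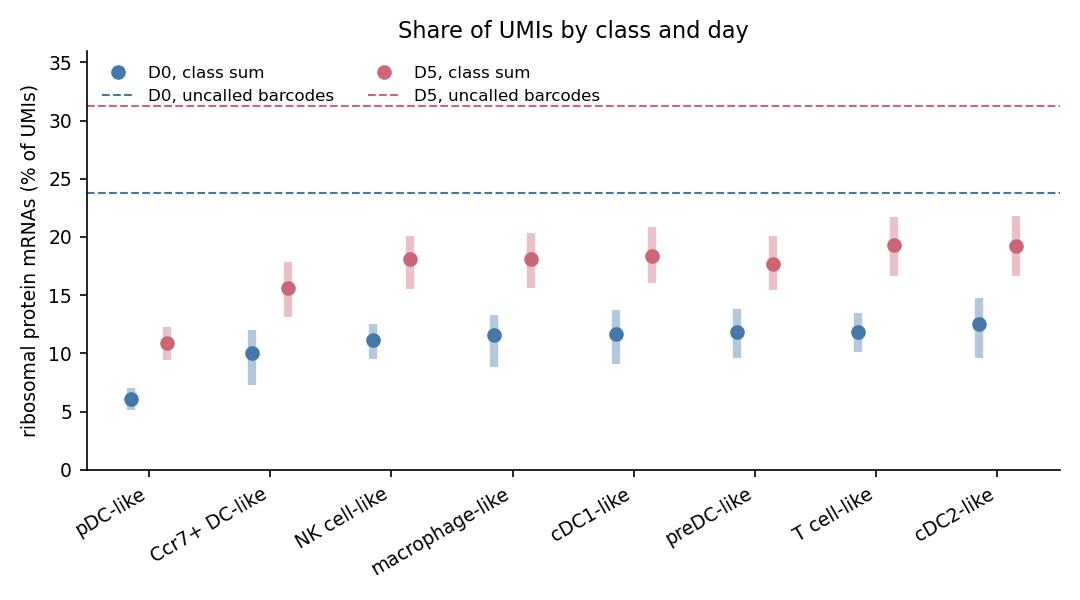
Share of UMIs from the 86 ribosomal protein genes (y axis, %) in 8 classes (x axis) at D0 (blue) and D5 (red). Points are shares of the summed UMIs, bars run from the lower to the upper quartile of the nuclei, and dashed lines are the share in barcodes that were not called as nuclei; pDC-like nuclei sit lowest on both days (6.12% and 10.9%), all classes sit below the dashed lines, and the red point is above the blue one in each class, which holds in pDC-like nuclei before free RNA read from Gzma is taken off.

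Clusters within a class also differed. The cDC2-like class joins 3 clusters. The cluster led by Tnfsf9 held 13.2% at D0 and 19.2% at D5, and the one led by Skint3 13.7% and 20.4%. The third, led by Ccdc192, raised 3 of the 14 cDC2 markers, the fewest that a name allows, and held 8.33% at D0 and 14.9% at D5. Without it, the log2 of D5 over D0 in cDC2-like nuclei was 0.56. Classes below 200 nuclei were not compared further. Among them, nonclassical monocyte-like nuclei held 8.40% in 103 nuclei at D0 and 14.8% in 165 at D5.

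The share was next set against the depth of each nucleus, taken as its UMIs outside the member genes. These UMIs are also part of the total by which the share is divided, so a falling relation is partly built in. With all UMIs on the axis rho was 0.078 at D0 and 0.16 at D5. Over 10949 nuclei at D0 Spearman's rho was −0.03, and over 19874 nuclei at D5 it was 0.04. Among nuclei with at least 2000 UMIs it was −0.34 at D0 and −0.17 at D5. This cutoff counts member UMIs too, so it admits nuclei with few other UMIs only where the member share is high. Nuclei of a library share its free RNA and its sequencing, so these are descriptions. In bins of depth, the D0 share was 10.2% below 1500 UMIs, 11.03% from 2000 to below 3000, 8.29% from 5000 to below 10000 and 6.53% in the 65 nuclei with 10000 or more. At D5 it ran from 17.6% in the lowest bin over 18.4% from 2000 to below 3000 to 16.2% from 5000 to below 10000. Every D5 bin lay above every D0 bin. The bins differ in the clusters that fill them. At D0, 61 of the 65 deepest nuclei and 130 of the 202 in the bin before lay in clusters without a name, at 6.66% and 8.38%, so the fall over all kept nuclei was not separated from this change of clusters.

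Within classes the relation on this axis was mostly flat or falling with depth, with the same built-in part. In pDC-like nuclei rho was −0.29 at D0 and −0.34 at D5, in cDC1-like nuclei −0.02 and −0.24, and in cDC2-like nuclei 0.06 and −0.16. With all UMIs on the axis these were −0.24 and −0.26, 0.10 and −0.11, and 0.20 and −0.02. The pDC-like class joins a cluster with a median of 1635 UMIs and a smaller, deeper one with a median of 3698. The deeper one held 176 nuclei at D0 and 89 at D5 and also raised 5 cDC1 markers. The fall with depth in pDC-like nuclei was not separated from this. The cDC1-like class also holds a deeper cluster, led by Pclaf, with a median of 4004 UMIs against 2795 and 2528. In the cDC2-like class the Ccdc192 cluster had the lowest median, 1979 UMIs against 2579 and 2360. The relations in these classes were not separated from their clusters either. Against UMIs outside the members, macrophage-like nuclei at D0 gave the largest positive value, 0.18, against −0.06 at D5. In cDC2-like nuclei at D5 the share was 21.8% below 1500 UMIs and 17.6% from 5000 to below 10000. The lowest bin holds nuclei under 1000 such UMIs only where member UMIs lift the total to 1000. With every nucleus thinned to 1000 UMIs, the log2 of D5 over D0 was 0.65 in cDC2-like nuclei, against 0.62 unthinned. In pDC-like nuclei it was 0.83, against 0.83. Thinning leaves the expected share of each nucleus unchanged and only weighs nuclei alike, so it cannot show an effect of depth.

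The fragments of open chromatin in the same nucleus gave a similar picture, with a rho of −0.12 at D0 and −0.08 at D5. The medians were 4572 fragments per kept nucleus at D0 and 3568 at D5. The D5 library thus held more UMIs and fewer fragments per nucleus than the D0 library.

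Other RNA classes that differ in where they reside moved beside the members. Malat1 took 2.43% of the UMIs of kept nuclei at D0 and 1.09% at D5. Per nucleus, its share of the UMIs outside the members ran against the member share, with a rho of −0.37 at D0 and −0.43 at D5. The other rho values of this paragraph use the same denominator. A list of 18 abundant cytoplasmic mRNAs took 5.96% of the summed UMIs at D0 and 8.88% at D5 and ran with the members (0.74 and 0.57). It holds Actb, B2m and Tmsb4x but also Cd74, H2-Aa and other antigen presentation genes, so these pooled values also carry differences between classes. Within classes rho ran from 0.25 (T cell-like) to 0.68 (cDC1-like) at D0 and from 0.28 (T cell-like) to 0.66 (pDC-like) at D5. In cDC2-like nuclei the list took 8.81% at D0 and 10.2% at D5. The mRNAs encoded by the mitochondrial genome were at 0.161% and 0.103%, lower at D5, and their relation to the member share was weak (0.26 and 0.11). At D5 a higher share of cytoplasmic mRNAs thus stood beside a lower share of mitochondrial ones and of Malat1. Barcodes not called as nuclei, which hold free RNA, showed the same directions. There Malat1 went from 0.432% at D0 to 0.165% at D5 and the mitochondrial mRNAs from 0.462% to 0.184%. The cytoplasmic list went from 10.2% to 12.3%. The log2 of D5 over D0 was −1.39, −1.33 and 0.26 there, against −1.15, −0.65 and 0.58 in kept nuclei. The part of free RNA in these shifts was not tested. The part of these RNA classes in the higher member share was not tested either.

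**Figure D2:**
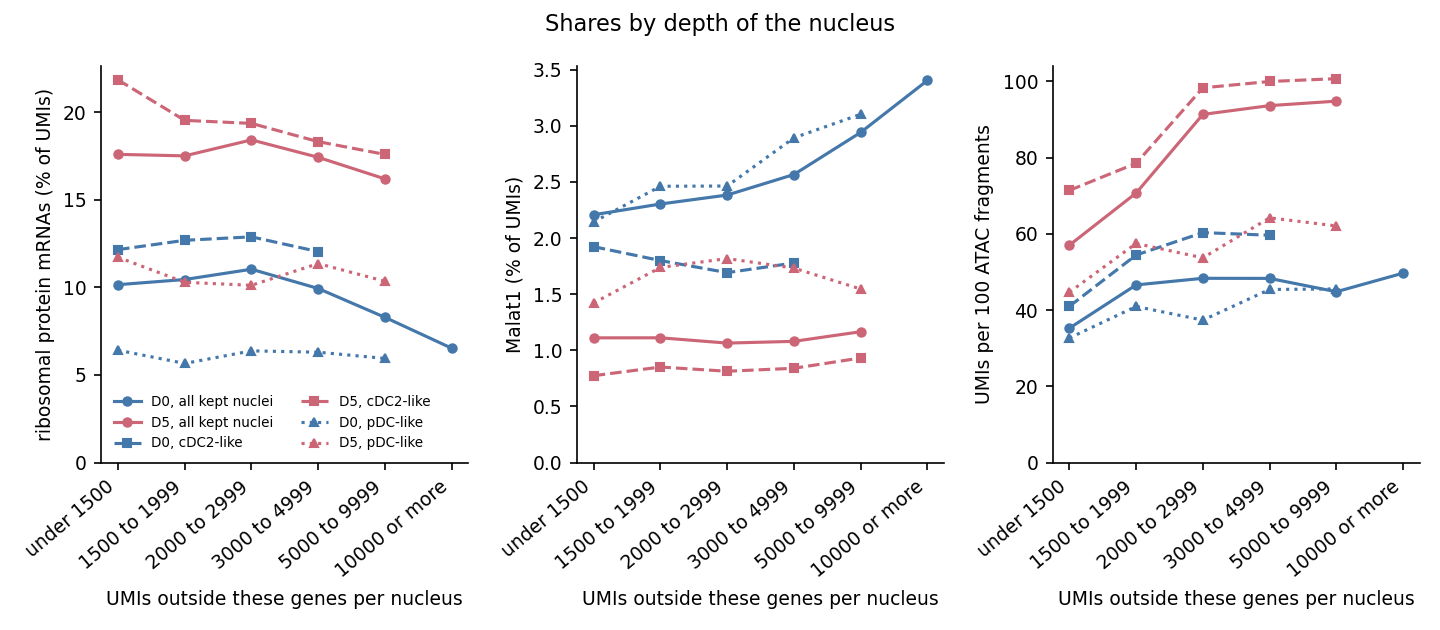
Share of UMIs from the ribosomal protein genes (left, %), share of Malat1 (middle, %) and UMIs per 100 ATAC fragments (right) in bins of UMIs outside these genes per nucleus (x axis), for all kept nuclei (solid), cDC2-like (dashed) and pDC-like nuclei (dotted) at D0 (blue) and D5 (red). At D0 the share of all kept nuclei was 10.2% in the lowest bin and 6.53% in the highest, Malat1 was lower at D5 in each bin of each group shown, and UMIs per fragment were higher at D5; bins under 20 nuclei are left out.

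RNA released from broken cells is caught in every droplet, so the members were also counted in barcodes with 11 to 100 UMIs that were not called as nuclei. They took 23.8% (23.7 to 24.0) of the UMIs there at D0 and 31.3% (31.2 to 31.3) at D5. Each class thus lay below the free RNA of its own library. The share in cDC2-like nuclei was 52.5% of the free RNA level at D0 and 61.5% at D5, and that in pDC-like nuclei 25.7% and 34.7%.

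How much of a class could be free RNA was read from mRNAs that the class should lack. T cell receptor and CD3 mRNAs (7 genes of the T cell list) were found in cDC2-like nuclei at 124 CPM (counts scaled to 1000000 UMIs) at D0 and 56.1 at D5, which is 15.1% (13.02 to 17.6) and 19.0% (17.3 to 20.9) of their level in uncalled barcodes. In pDC-like nuclei these fractions were 13.2% at D0 and 23.4% at D5. Read from Gzma, a granzyme of NK and T cells, they were 13.4% and 20.3% in cDC2-like nuclei and 13.6% and 30.8% in pDC-like nuclei. Doublets with lymphoid cells would raise the same mRNAs, and the doublet filter had removed 23.3% of nuclei at D0 and 25.4% at D5.

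After this part was taken off and the rest rescaled to the UMIs that remained, the member share of cDC2-like nuclei was 10.5% at D0 and 16.4% at D5 with the T cell mRNAs, and 10.8% and 16.2% with Gzma. The log2 ratios were 0.65 and 0.59, against 0.62 before. In pDC-like nuclei the result depended on the gene used. The share went from 3.42% to 4.62% with the T cell mRNAs and from 3.33% to 1.78% with Gzma, a log2 of 0.43 in one case and −0.90 in the other. The direction in pDC-like nuclei thus depended on this choice, while in the other 5 classes read both ways the log2 stayed between 0.39 and 0.73. In NK cell-like and T cell-like nuclei, read from 5 pDC mRNAs, the log2 less free RNA was 0.68 and 0.88.

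**Figure D3:**
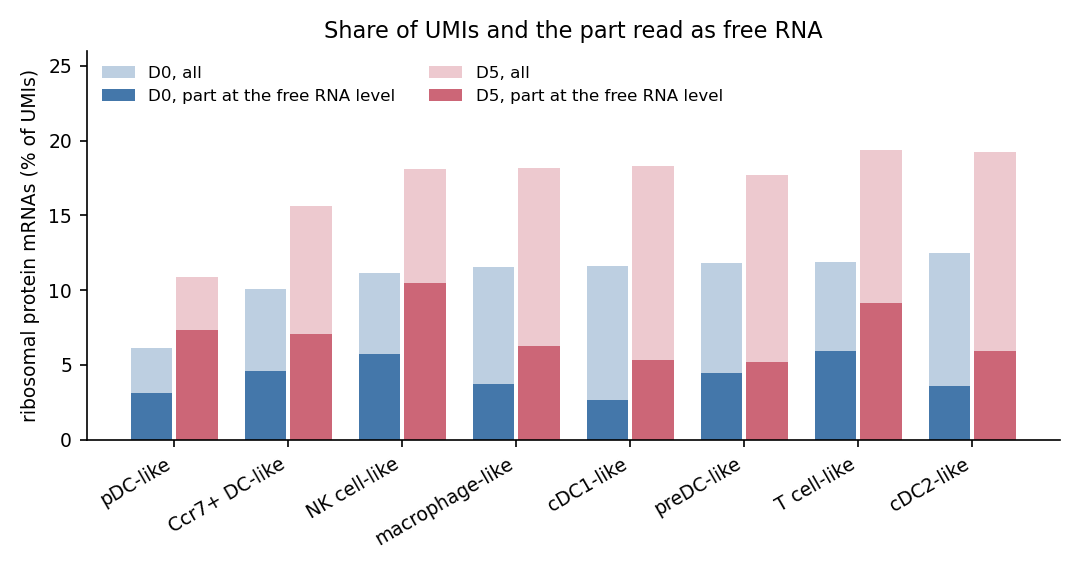
Share of UMIs from the ribosomal protein genes (y axis, %) in 8 classes (x axis) at D0 (blue) and D5 (red). Pale bars are the full share and dark bars the part that free RNA would give, read from T cell receptor and CD3 mRNAs, or from 5 pDC mRNAs in NK cell-like and T cell-like nuclei; in pDC-like nuclei at D5 this part is 7.31 of 10.9 percentage points, and read from Gzma it is 9.62, before the rest is rescaled to the remaining UMIs.

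Gene by gene, the members stood apart from the bulk of the transcriptome in the ratio of D5 over D0. Called here means a CPM at least 1.5-fold higher or lower, among genes with at least 20 UMIs over both days. In all kept nuclei, whose mix of classes differs between the days, 71 of 85 members were at least 1.5-fold higher at D5, against 4.49% of all 16175 genes. In cDC2-like nuclei 53 of 83 were, against 6.33% of all genes, with a median log2 of 0.65 over the members and −0.17 over all genes. No member was at least 1.5-fold lower there, against 20.5% of all genes. The count depends on the limit, since the highest log2 of a member there was 0.86, below 2-fold. Among cDC2-like nuclei with at least 2000 UMIs the median over the members was 0.57, just under 1.5-fold. Scaling by TMM factors instead of total UMIs moved all genes of cDC2-like nuclei by 0.30 on the log2 scale, members included, to a median of 0.95 over the members and 0.13 over all genes. The distance of 0.82 between these medians is fixed under any such scaling.

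The other classes gave the same direction. At least 1.5-fold higher at D5 were 58 of 83 members in cDC1-like nuclei (4.33% of all genes), 56 of 83 in macrophage-like nuclei (6.02%) and 63 of 83 in NK cell-like nuclei (6.85%). In T cell-like nuclei 62 of 83 members were (10.3% of all genes), in Ccr7+ DC-like nuclei 51 of 83 (14.0%) and in preDC-like nuclei 45 of 83 (14.3%). In pDC-like nuclei 75 of 84 members were (5.94% of all genes), before any correction for free RNA, with which their summed share could turn to lower at D5. Of the 83 members that could be compared in each of the 8 classes, 77 had an interval above 0 throughout, against 2.48% of 7168 genes, with the same limit for pDC-like nuclei.

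In uncalled barcodes the members also stood above the other genes, with a median log2 of 0.41 over the members and −0.25 over all genes. The log2 was above 0 for 75 of 83 members, against 34.7% of all genes, where it was for 82 of 83 in cDC2-like nuclei, against 35.5%. Fewer members passed 1.5-fold in free RNA, 12 of 83, near the 10.5% of all genes. The order of the members was shared. Across 81 members, the log2 ratio in nuclei and that in free RNA of the same libraries had a rho of 0.82 in cDC2-like and 0.53 in pDC-like nuclei. The points share their libraries and their free RNA, so this is a description.

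The large subunit genes made up 54.7% of the member UMIs in cDC2-like nuclei at D0 and 54.1% at D5. Of the 46 core genes, 29 were at least 1.5-fold higher at D5 there, against 6.33% of all genes, with a median log2 of 0.64. Rpl12, a protein at the base of the stalk, went from 1062 to 1907 CPM in cDC2-like nuclei (log2 0.84, interval 0.80 to 0.89). It went from 938 to 1814 CPM in cDC1-like nuclei (log2 0.95), the largest ratio of any member there. Rpl21 followed with 1465 and 2613 CPM in cDC2-like nuclei (log2 0.83). Rpl13, among the 5 members with the most UMIs, went from 2544 to 4252 CPM (log2 0.74). At the other end, Rpl38, whose loss in mice alters the axial skeleton, was at 1625 and 1882 CPM in cDC2-like nuclei (log2 0.21, 0.17 to 0.25) and at 1524 and 1745 CPM in cDC1-like nuclei (log2 0.19, the lowest there). Both of its intervals lay above 0 and below 1.5-fold.

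The small subunit genes took 44.4% of the member UMIs of cDC2-like nuclei at D0 and 45.1% at D5. Of 31 core genes, 23 were at least 1.5-fold higher at D5, against 6.33% of all genes, with a median log2 of 0.70. Rps9 gave the largest ratio in cDC2-like nuclei, from 2100.0 to 3823 CPM (log2 0.86, 0.83 to 0.90). Rps27a, which is made as a fusion with ubiquitin, went from 2020 to 3550 CPM (log2 0.81). Rps16, also among the members with the most UMIs, had a log2 of 0.74. In cDC1-like nuclei Rps7 (log2 0.86), Rps9 (0.85) and Rps12 (0.84) led the small subunit.

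A pair of small subunit genes lagged behind in both dendritic classes. Rps27 was at 2032 CPM at D0 and 2164 at D5 in cDC2-like nuclei (log2 0.09, 0.06 to 0.13) and at 1582 and 1830 CPM in cDC1-like nuclei (0.21). Rps29 was at 3051 and 3533 CPM in cDC2-like nuclei (0.21, 0.18 to 0.24) and at 2949 and 3509 CPM in cDC1-like nuclei (0.25). Both encode short zinc-binding proteins of the 40S subunit. In uncalled barcodes Rps27 was lower at D5, with a log2 of −0.18 (−0.26 to −0.11).

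The stalk proteins Rplp0, Rplp1 and Rplp2, which recruit the elongation factors, did not move evenly. Rplp0 went from 1332 to 2231 CPM in cDC2-like nuclei (log2 0.74), Rplp2 from 1727 to 2544 (0.56) and Rplp1 from 2997 to 3933 (0.39, 0.36 to 0.42). Only Rplp0 of the 3 passed 1.5-fold there. In cDC1-like nuclei the same order held, with 0.77, 0.69 and 0.47.

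The 9 copies and namesakes took 0.863% of the member UMIs in cDC2-like nuclei at D0 and 0.742% at D5. Rpl7l1, a paralog linked to ribosome assembly, was at 51.1 and 55.8 CPM (log2 0.13, −0.09 to 0.35). Rps27l, a paralog of Rps27 known as a target of p53, was at 163 and 179 CPM (0.14, 0.02 to 0.26). Rps27rt, a retrotransposed copy of Rps27, was at 59.2 and 58.4 CPM (−0.02, −0.23 to 0.19), and this sign turned under other scalings. Rpl22l1, the paralog of Rpl22, had a log2 of 0.55, and Rpl36al one of 0.46. Of the 9, 6 had at least 20 UMIs over both days in cDC2-like nuclei. Rps19bp1, which only shares the name and binds Rps19, was the 1 of these past 1.5-fold, against 6.33% of all genes. It was at 15.5 and 23.8 CPM from 63 and 393 UMIs (log2 0.62, 0.23 to 1.03). Rpl3l, a muscle form, had 28 and 63 UMIs in all kept nuclei, and Rpl39l, a testis form, 18 and 49.

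The promoters of 4 of the lagging members are shown because of their start sites and because Rps27 and Rps27rt share sequence. They are RefSeq promoters of GRCm38.p6, 40 bases before the start and 20 from it, read 5′ to 3′ on the gene's strand, with the run of pyrimidines from the first transcribed base in capitals. Rps27 lies on the minus strand (chr3:90213629-90213688), as does Rps27rt (chr9:114982720-114982779). Rpl38 (chr11:114668540-114668599) and Rps27l (chr9:66946046-66946105) lie on the plus strand.
Rps27: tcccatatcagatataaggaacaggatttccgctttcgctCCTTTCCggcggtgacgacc
Rps27rt: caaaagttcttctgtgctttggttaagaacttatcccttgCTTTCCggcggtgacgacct
Rpl38: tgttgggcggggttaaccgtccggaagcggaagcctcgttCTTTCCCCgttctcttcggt
Rps27l: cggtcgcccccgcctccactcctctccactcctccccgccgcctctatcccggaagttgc

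The run from the start was 7 pyrimidines in Rps27, 6 in Rps27rt and 8 in Rpl38, whereas Rps27l starts with a purine and has a C followed by at least 4 pyrimidines within 5 bases of its start. Rpl7l1, another lagging member, has a run of 1 and is not shown. A C followed by at least 4 pyrimidines at the start itself occurred in 2.51% of 32851 promoters of the table, from which nothing is read here, since the 4 were chosen for their starts. From their starts, Rps27 and Rps27rt hold the same 38 bases, from base 2 to 39 of Rps27 and from base 1 to 38 of Rps27rt, while the bases before the starts differ. The 3′ ends, where the assay reads, were not compared, and if they are alike too, reads can be split or lost in counting, so the value of Rps27rt is uncertain. Promoters were found for 66 of the 86 members, under 80%, so a comparison of motif shares between members and other genes is void and none is given.

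**Figure D4:**
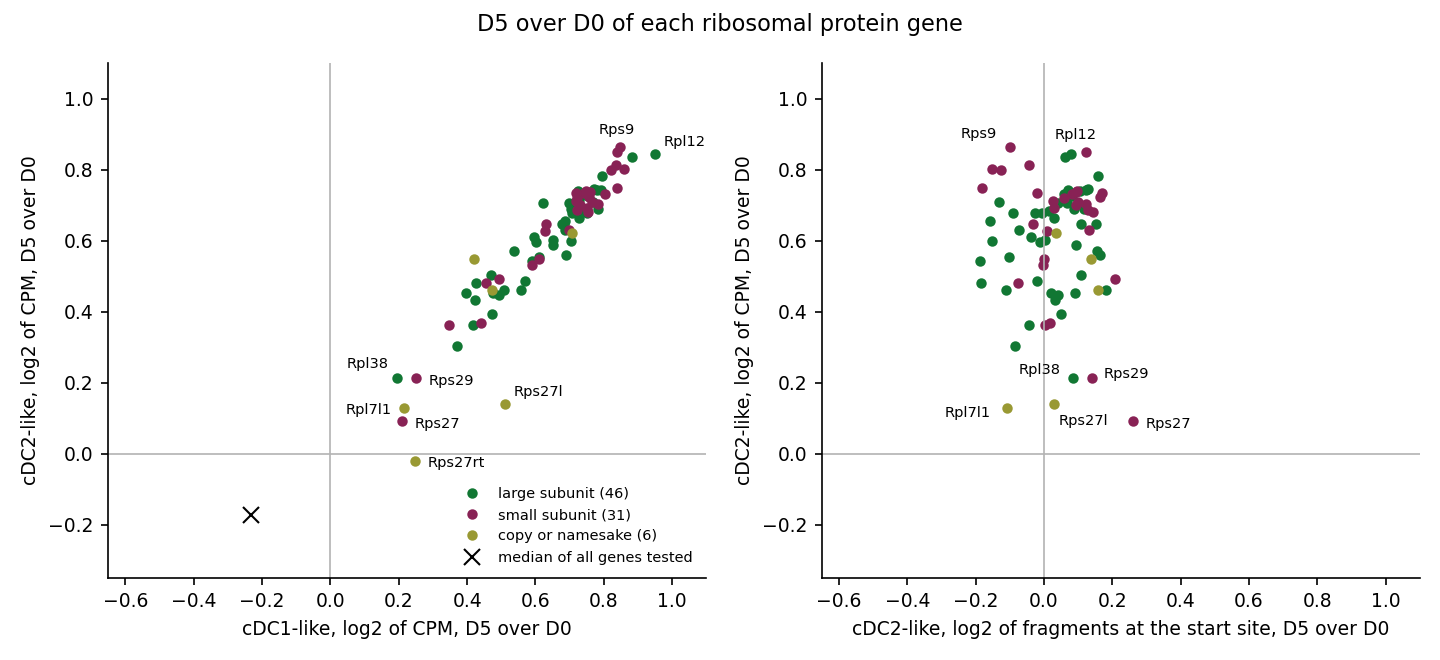
Each point is 1 ribosomal protein gene, coloured by role, with the log2 of D5 over D0 of its CPM in cDC2-like nuclei on both y axes, its log2 in cDC1-like nuclei on the left x axis and that of the ATAC fragments at its start site in cDC2-like nuclei on the right x axis. On the left nearly all points lie above 0 on both axes and far from the cross marking the median of all genes (−0.17 in cDC2-like nuclei), with Rps27rt, Rps27, Rpl7l1, Rps27l, Rps29 and Rpl38 lowest on the y axis; on the right the points stay near 0 on the x axis (median 0.04).

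Free of the total level, the makeup of the member mRNAs was compared as each gene's share of the member UMIs over 16 points of class and day. Of 82 members that could be compared, 62 varied less than 1.5-fold between the highest and lowest point, with a median of 1.35-fold. Rpl30 varied 1.12-fold, Rpl6 1.13-fold and Rplp2 1.14-fold. In contrast, Rps27l varied 4.64-fold. No free RNA was taken off here, and the classes of a day share that of their library. Read from T cell mRNAs, it would give 3.60 of 12.5 percentage points in cDC2-like nuclei at D0. In pDC-like nuclei at D0 it would give 3.15 of 6.12. Its part in these ranges was not tested.

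Rps27l was concentrated in Ccr7+ DC-like nuclei. It took 0.381% (0.335 to 0.430) of the member UMIs there at D0 and 0.197% (0.185 to 0.210) at D5. In the other 7 classes it lay between 0.102% and 0.139% at D0 and between 0.0820% and 0.141% at D5, so Ccr7+ DC-like nuclei were highest on each day with no overlap of the intervals. In CPM, Rps27l was at 383 in Ccr7+ DC-like nuclei at D0 and 308 at D5 (log2 −0.32, −0.52 to −0.11), from 254 and 919 UMIs. Among the 8 classes this was the one member and class with an interval below 0. In uncalled barcodes Rps27l was lower at D5 as well, with a log2 of −0.32 (−0.56 to −0.07). In 5 of the 8 classes its interval lay above 0, pDC-like nuclei among them before any free RNA was taken off.

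The next widest ranges belonged to pDC-like and lymphoid nuclei. Rpl7l1 varied 3.79-fold, from 0.0229% of the member UMIs in macrophage-like nuclei at D5 to 0.0868% (0.0753 to 0.0996) in pDC-like nuclei at D0. Rpl31, a protein near the exit of the peptide tunnel, was at 1.19% in pDC-like nuclei at D0 and 0.981% at D5, against 0.600% and 0.543% in cDC2-like nuclei. In this share no other class reached the pDC-like level, the nearest being preDC-like nuclei at D0 with 0.854%. Member UMIs are the smallest part of all UMIs in pDC-like nuclei, so a high share of them there need not be a high CPM. In CPM the range over the points was 2.26-fold for Rpl7l1 and 1.84-fold for Rpl31. Rps27 was highest in T cell-like nuclei at D0 (2.12%), next in NK cell-like nuclei (2.05%) and lower at D5 in each of the 8 classes, down to 0.998% in cDC1-like nuclei. Rps27rt varied 2.18-fold, at 23 UMIs or more per point. Rps19, a 40S protein mutated in Diamond-Blackfan anaemia, was highest in Ccr7+ DC-like nuclei, with 1.98% at D0 and 1.61% at D5.

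**Figure D5:**
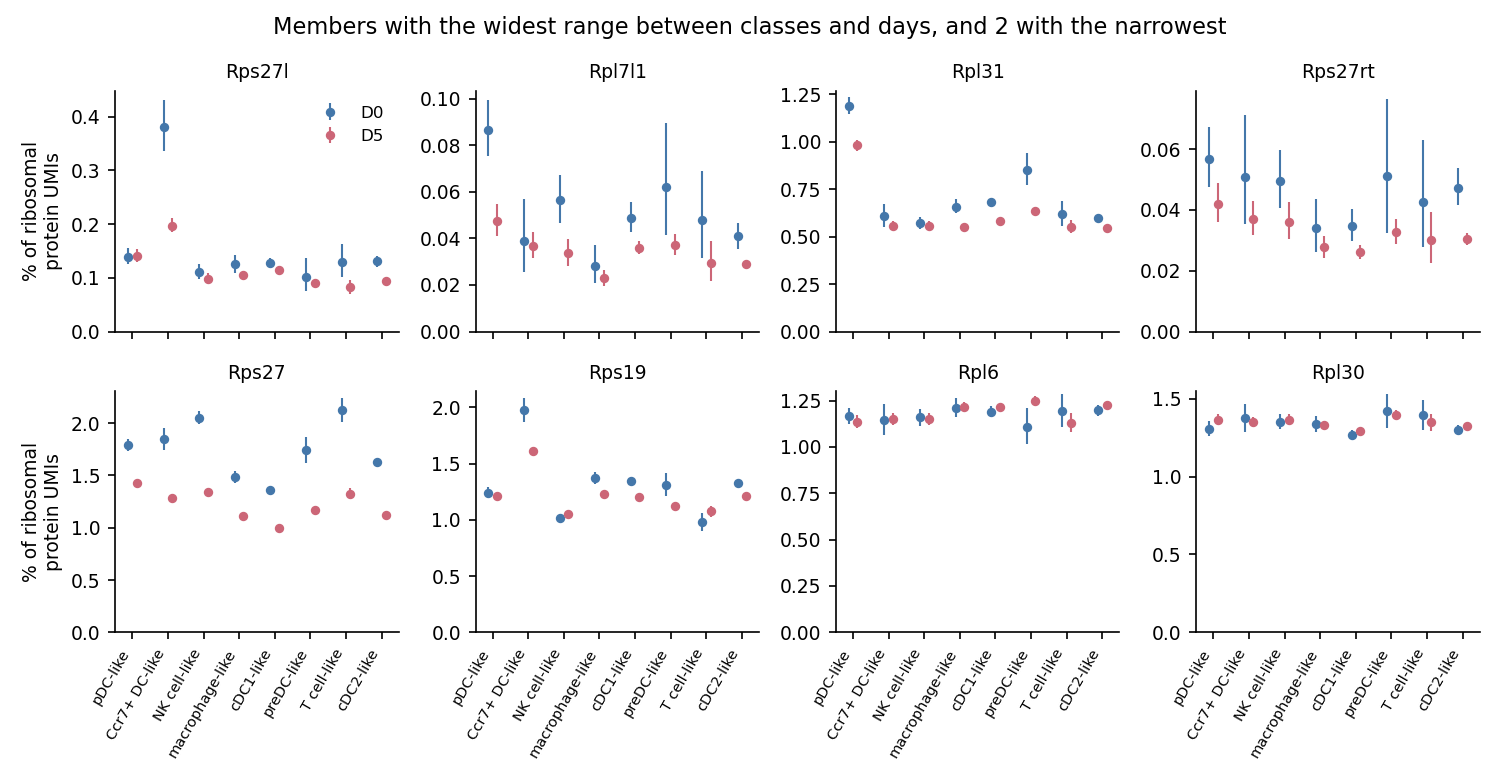
Share of the ribosomal protein UMIs (y axis, %) taken by 8 single genes in each class (x axis) at D0 (blue) and D5 (red), with 95% intervals for counting error; the first 6 have the widest range between points and Rpl6 and Rpl30 the narrowest. Rps27l peaks in Ccr7+ DC-like nuclei (0.381% and 0.197%), Rpl31 in pDC-like nuclei (1.19% and 0.981%), and Rps27 is lower at D5 in each class.

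Genes that share the translation control or the process of the members were counted by the same rule. Of 21 translation factors and other genes of the terminal oligopyrimidine type, 8 were at least 1.5-fold higher at D5 in cDC2-like nuclei (6.33% of all genes) and 1 lower (20.5%), with a median log2 of 0.46. Eef1b2, a subunit of elongation factor 1, went from 528 to 951 CPM (log2 0.85), Eef1a1 from 2685 to 4389 (0.71), and Rack1, a protein of the 40S head, from 1259 to 2155 (0.77). Eif4a2, an RNA helicase of initiation, was at 218 and 129 CPM (−0.75). Fau, a ribosomal protein made as a fusion, went from 3483 to 5412 CPM (0.64), near the members' median.

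Of 78 mitochondrial ribosome genes, 22 were at least 1.5-fold higher in cDC2-like nuclei and 1 lower, with a median log2 of 0.44. In cDC1-like nuclei 7 of 78 were higher, against 4.33% of all genes there, and the median was 0.23. Of 40 genes of ribosome assembly in the nucleolus, such as Ncl, Fbl and Nop56, 2 were higher in cDC2-like nuclei, near the share of all genes (6.33%), and 1 lower, with a median of 0.11. Of the 18 abundant cytoplasmic mRNAs, 4 were higher and none lower, with a median of 0.35. Each of these medians lay above that of all genes (−0.17) and below that of the members (0.65).

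The 10 genes whose CPM ran most like the summed members over the 16 points of class and day were Naca, Rack1, Ppib, Tpt1, Btf3, Eif3i, Ier3ip1, Rbm3, Serf2 and Eef1a1, out of 3811 genes compared. Pearson's r was 0.98 for Naca, part of the complex that meets nascent chains, and 0.95 for Eef1a1. The points share their libraries.

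Open chromatin at the same genes did not follow the RNA. Shared peaks within 2 kb of the start site were found for 83 of 86 members, and 25 other genes shared such a region with a member. In cDC2-like nuclei the members took 0.472% of the fragments at D0 (0.467 to 0.477) and 0.486% at D5 (0.483 to 0.490). The median log2 of D5 over D0 was 0.04 over the 83 members and −0.01 over all genes. No member was at least 1.5-fold higher, against 1.20% of 18184 genes, and none was at least 1.5-fold lower, against 7.53%. Rps9 was at 36.8 and 34.4 fragments per 1000000 (log2 −0.10, −0.30 to 0.11) and Rps27 at 43.3 and 51.9 (0.26, 0.08 to 0.44). The member with the highest ratio of fragments was thus one of the lowest in RNA. In the 8 classes the median over the members lay between −0.00 and 0.11. The median over all 86 members, with the 3 that lack a shared region counted as 0, stood at the 71.9th percentile of 19467 genes with fragments at D0. Across the 83 members compared, accessibility and UMIs had a rho of 0.12 at D0 and 0.15 at D5.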

How the data were processed

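The authors deposited raw counts: UMIs per gene and called barcode, and joint matrices of gene UMIs and peak counts for all barcodes. The submitters' processing notes name Cell Ranger ARC 2.0.2 and mm10, and the header of the RNA matrices names cellranger 6.0.2. Whether intronic reads were counted is not given in the sources used here. The members and gene lists were chosen with earlier results of these data known.

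Nuclei with at least 1000 UMIs, at most 10% mitochondrial UMIs and a doublet score under 0.2 (Scrublet in scanpy 1.11.5) were kept. Both libraries were clustered together (2000 variable genes without members, translation and mitochondrial genes, 30 components, 15 neighbours, Leiden resolution 1). A class needed at least 3 markers raised 2-fold. UMIs were summed per class and day, and scaled to CPM. Shares carry exact Clopper-Pearson intervals and ratios exact conditional binomial ones (scipy 1.17.1). Only the ratio intervals were tried on simulated data, with Poisson counts and no variation between nuclei or libraries. PCR and pooling error are not covered. Peak counts were halved to fragments. Layers were joined by identical gene counts. TMM factors (edgeR 4.0.16), DESeq2 1.42.0 size factors, other filters and other barcode ranges served as alternatives.

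Named members were the 5 with the most UMIs, the 5 highest and 5 lowest ratios in cDC2-like and cDC1-like nuclei, the 5 widest and 3 narrowest ranges over classes, and the copies and namesakes. Some members that this rule names are not reported here. Rplp0 and Rps19 were added after their values were seen. Other genes named were the 10 most alike in CPM and examples from the lists.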

Additional observations from a re-analysis of the deposited data

Results flagged for a closer look

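Rps27l differed between classes in its direction from D0 to D5. It was lower at D5 in Ccr7+ DC-like nuclei, with a log2 of −0.32 (−0.52 to −0.11), while its interval lay above 0 in 5 of the 8 classes, before any free RNA was taken off. In uncalled barcodes it was lower at D5 too, with a log2 of −0.32 (−0.56 to −0.07). With 1 library per day the difference between these ratios was not tested.

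UMIs also appeared in the 5 rows with -ps, which the member rule leaves out. They summed to 1131 UMIs in kept nuclei at D0 and 4224 at D5, above the 3 counts that a count of 0 would allow, and 4 of the 5 rows held at least 1 UMI. Relative to the member UMIs this was 0.0477% at D0 and 0.0427% at D5.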

How the results depend on the processing

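No paired analysis was possible because each day is 1 library, and for the same reason no replicate could be left out. The log2 of the member share, D5 over D0 (0.82 in all kept nuclei, 0.62 in cDC2-like, 0.83 in pDC-like), and the highest over the lowest class share at D0 (2.04) moved as follows, each in that order where it moved. Without removal of doublets they were 0.87, 0.60, 0.92 and 1.77. With at least 500 UMIs they were 0.81 in all, 0.81 in pDC-like and 2.03, and with at least 2000 they were 0.81, 0.55, 0.78 and 2.12. With a denominator without mitochondrial genes and Malat1 they were 0.80, 0.61, 0.81 and 2.03. As a mean over nuclei they were 0.79, 0.65 and 2.00, and thinned to 1000 UMIs 0.79, 0.65 and 2.00 (all, cDC2-like, ratio of classes). With 3 genes that the name rule misses added they were 0.82 in all and 2.06, and with core members only 0.82 in all. At Leiden resolution 0.5 pDC-like gave 0.85 and the ratio 2.09, and with members kept in the clustering 0.84 and 2.03. At resolution 0.5 the clusters with NK cell, T cell or macrophage markers drew no name, so its ratio spans fewer classes. Without removal of doublets the cluster with macrophage markers drew none either. Among alternatives chosen after seeing the data, removal of free RNA read from T cell receptor and CD3 mRNAs gave 0.65 in cDC2-like, 0.43 in pDC-like and a ratio of 3.06. Read from Gzma these were 0.59, −0.90 and 3.23, a reversed direction in pDC-like nuclei, and the cause was not tested. Without the Ccdc192 cluster cDC2-like gave 0.56 and the ratio 2.18.

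Spearman's rho of share and depth (−0.03 at D0, 0.04 at D5) was 0.078 and 0.16 against all UMIs, −0.11 and −0.057 without removal of doublets, −0.14 and −0.049 with at least 500 UMIs, −0.34 and −0.17 with at least 2000, −0.070 and −0.14 as the median within classes, and −0.12 and −0.084 against fragments. At D0 the sign turned with all UMIs on the axis alone, and at D5 with every alternative but that one.

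With TMM factors the median log2 over members was 0.95 (cDC2-like) and 1.02 (cDC1-like), 0.73 and 0.85 with DESeq2 size factors, and 0.76 and 0.81 scaled by UMIs outside the members. With at least 2000 UMIs it was 0.57 in cDC2-like nuclei. At a 2-fold limit 0 members were called in either class. The highest over the lowest share of Rps27l was 4.46 without removal of doublets. The member share of uncalled barcodes was 23.2% at D0 and 30.6% at D5 at 1 to 10 UMIs, and 24.8% and 30.3% above 100 and up to 300 UMIs. The median log2 of accessibility was 0.018 when scaled by fragments at all start sites. For 48 results of named members, 136 of 288 alternatives stayed within the counting interval, 152 moved beyond it, 0 reversed a called direction and 285 kept the sign. Depth limits Rpl3l, Rpl39l and Rpl10l, for which no ratio was given by class.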

Other observations

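Fau and Rack1, which the name rule misses, were at 2597 and 949.7 CPM in kept nuclei at D0 and at 4799 and 1843 CPM at D5. In the 3 endothelial-like nuclei kept at D5 the members took 25.7% of 12928 UMIs, with the single nuclei at 13.5%, 16.7% and 28.1%, against 6.93% of 81981 UMIs in 34 such nuclei at D0.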
